A study of Mus musculus with 2 samples.

Results

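The genes described here are Grb10, Igf2, H19 and the core of insulin-like growth factor (IGF) and insulin signalling, namely Igf1, Igf1r, Igf2r, Insr, Irs1, Irs2 and Irs4. They were chosen as all non-control probes that the array design assigns to one of these 10 names, which gave 20 probes of 56605 and 10 genes of 32947 gene names. The choice was made with the measured differences of some of these genes already known, so the values are a description and carry no test. The samples were mouse 46C embryonic stem cells, a line with green fluorescent protein placed at the Sox1 gene as a sign of neural conversion, on day 5 of neural differentiation. Dissociated cells had been left to form aggregates in low-adhesion dishes in a medium with knockout serum replacement. One group was wild type, the other was labelled KO-Linc1548 for the loss of a long intergenic non-coding RNA, and each group had 1 array. The labels do not say how the knockout was made or whether the line was 1 clone. No probe on the array carries the name Linc1548 (0 probes), so the loss of the RNA was not read.

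IGF1, IGF2 and insulin are secreted ligands that act on the receptor tyrosine kinases IGF1R and INSR. The active receptors phosphorylate the docking proteins IRS1, IRS2 and IRS4, which recruit PI3 kinase and so activate AKT and mTOR, a route to growth and survival. GRB10 is an adapter that binds the active receptors and dampens their signal, and IGF2R, which has no kinase, carries IGF2 to lysosomes. Igf2, H19, Grb10 and Igf2r are imprinted in the mouse, that is, expressed from the chromosome of 1 parent in many tissues. Igf2 is mostly expressed from the paternal copy and H19, a neighbouring non-coding RNA, from the maternal copy, under shared control. Grb10 is expressed from the maternal copy in most tissues and from the paternal copy, through other promoters, in neurons.

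Sequences are shown for the non-coding RNA, whose probes read the largest gain among the members, and for the most upstream probe of Grb10, which holds an ATG, since Grb10 is the gene with the largest loss. The probe sequences are those of the array files, on mouse build mm9, minus strand, at chr11:11870574-11870633 for Grb10 and at chr7:149761492-149761551 and chr7:149762173-149762232 for H19. Capitals in the Grb10 probe mark the stretch from its ATG, in a reading frame with no stop before the end of the probe.
Grb10 probe: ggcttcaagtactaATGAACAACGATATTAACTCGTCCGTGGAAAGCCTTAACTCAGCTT
H19 probe 1: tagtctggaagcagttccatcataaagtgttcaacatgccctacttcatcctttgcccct
H19 probe 2: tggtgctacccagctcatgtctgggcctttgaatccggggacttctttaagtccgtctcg
None of the 20 member probes shared a run of 25 bases with any other non-control probe of the array.

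Grb10 and Igf2 each have several transcription starts in RefSeq, and the windows of 250 bases before them differ in their content of CpG, the dinucleotide at which DNA is methylated. The starts are numbered from the most upstream. The windows below belong to both listed Grb10 starts and to the Igf2 start with the most CpG; they come from RefSeq on build GRCm38.p6, minus strand, at chr11:12037421-12037670, chr11:12027972-12028221 and chr7:142658805-142659054, and capitals mark CpG.
Grb10 start 1: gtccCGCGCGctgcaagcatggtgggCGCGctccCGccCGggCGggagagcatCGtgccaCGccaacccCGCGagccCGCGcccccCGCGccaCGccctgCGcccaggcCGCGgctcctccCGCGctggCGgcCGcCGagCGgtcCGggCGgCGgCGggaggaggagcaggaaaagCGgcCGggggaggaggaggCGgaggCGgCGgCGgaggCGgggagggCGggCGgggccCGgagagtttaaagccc
Grb10 start 2: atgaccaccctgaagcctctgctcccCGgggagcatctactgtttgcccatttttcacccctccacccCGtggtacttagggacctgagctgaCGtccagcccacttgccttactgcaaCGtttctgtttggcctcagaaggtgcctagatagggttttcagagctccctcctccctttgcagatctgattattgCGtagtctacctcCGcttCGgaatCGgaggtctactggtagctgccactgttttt
Igf2 start 3: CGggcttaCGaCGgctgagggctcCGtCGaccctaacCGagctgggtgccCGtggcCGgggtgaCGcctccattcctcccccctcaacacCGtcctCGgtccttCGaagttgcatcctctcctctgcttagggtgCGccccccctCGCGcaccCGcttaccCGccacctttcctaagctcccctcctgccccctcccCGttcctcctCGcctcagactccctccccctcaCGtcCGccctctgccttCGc
The first Grb10 window held 40 CpG, and 98.9% of 32851 such windows in the RefSeq table held as many or fewer. The second Grb10 window held 8, near the median of 6 over all windows. The 4 Igf2 windows held 1, 10, 22 and 6 CpG in order. The GC box GGGCGG, which includes a CpG, was searched on both strands, and 32.7% of all windows held it. It occurred 5 times in the first Grb10 window and 0 times in the second. The Igf2 windows held it 0, 0, 1 and 2 times in order. TATAAA was found on either strand in 0 of the 12 windows of members and in 12.4% of all windows. RefSeq windows were matched for 8 of the 10 genes. These counts describe the reference sequence, since methylation and promoter use were not measured.

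Signals are background-corrected spot brightness scaled to a common 75th percentile, and a difference is the log2 signal of the knockout minus that of the wild type. A probe counted as measured where the software called it well above background on both arrays, and each gene takes the median of its measured probes. With 1 array a group no difference has a replicate check, and a limit of 2-fold was used to count genes. In such bulk RNA, fewer cells of a type and less RNA in each cell cannot be told apart. All 10 genes had at least 1 measured probe, and 15 of the 20 probes were measured. The software's error model put the SD of the log2 difference of these 15 probes between 0.20 and 0.27, and every member probe was printed in 1 spot.

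**Figure D1:**
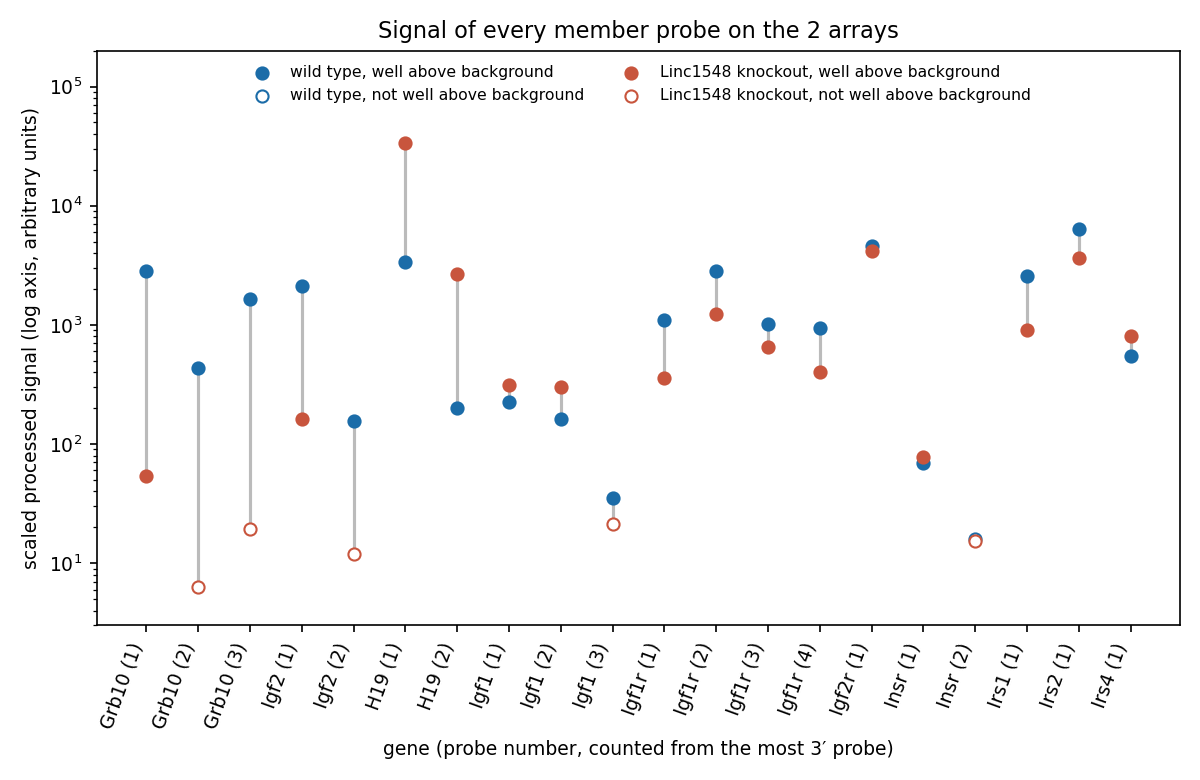
Scaled processed signal (log axis, arbitrary units) of each of the 20 member probes on the wild type array and the knockout array, numbered within a gene from the most 3′ probe, with open circles for signals not well above background. The Grb10 and Igf2 probes are lower and both H19 probes higher on the knockout array, and the Igf2r and Insr pairs nearly coincide.

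Of the 10 genes, 1 was at least 2-fold higher on the knockout array (H19) and 4 were at least 2-fold lower (Grb10, Igf2, Irs1 and Igf1r). Of all 18671 measured genes, 11.5% passed the limit upward and 8.81% downward (20.3% either way), that is 2149 and 1644 genes, or 1397 and 2964 when the arrays were centred on their spike-in probes. But part of the list was chosen on this contrast, so nothing is read from the excess. By probe, 2 were higher and 6 lower by that much out of 15, against 10.5% and 8.44% of all 31536 measured probes. Of the 4 member probes called above background in the wild type alone, 3 had a bound past 2-fold, against 21.8% of all such probes; 0 member probes were so in the knockout alone, where 71% of all such probes had a bound of that size. The other 5 genes, Igf1, Igf2r, Insr, Irs2 and Irs4, lay within 2-fold.

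**Figure D2:**
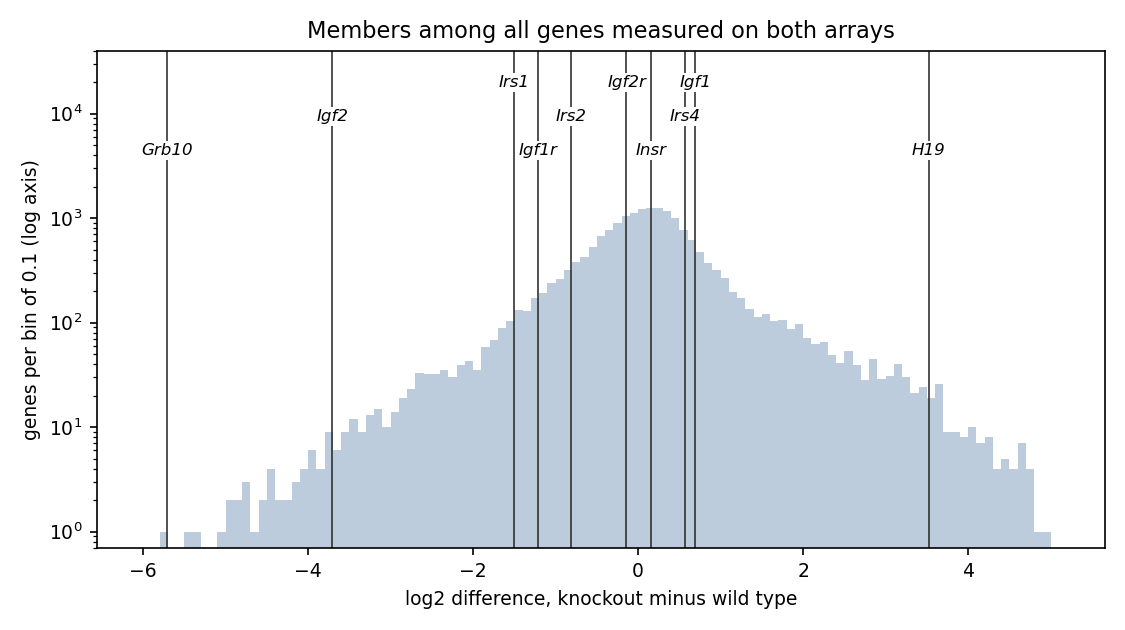
Histogram of log2 differences (knockout minus wild type) of the 18671 genes measured on both arrays in bins of 0.1, with a log axis for the number of genes and a vertical line for each member. Grb10, at −5.71, is the left end of the whole distribution, Igf2 and H19 lie in the tails, and Igf2r, Insr, Irs4 and Igf1 lie in the central mass.

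Under the main setting, Grb10 had the lowest difference of all genes and of all probes measured on both arrays. Its rank under other settings is not given, and probes not measured on both arrays are outside the ranking. Its most 3′ probe, on chromosome 11 at 11833165 to 11833224 (mm9), read 2835 in the wild type and 54.1 in the knockout, a log2 difference of −5.71 (52.4-fold lower). The knockout signal lay close to 30.5, the dimmest signal still called well above background on that array, so the size of this fold is uncertain, and with normexp background correction it was 21.3-fold. The probe whose sequence holds the ATG lies 37409 bases upstream along the gene; it read 1651 in the wild type, and the knockout signal of 19.2 was not well above background. The wild type signal there was higher by a bound of 54.2-fold, which rests on that same dimmest signal of 30.5. The middle probe, 16579 bases upstream of the most 3′ one and designed on the Ensembl transcript ENSMUST00000142877, read 434 in the wild type and 6.35, not well above background, in the knockout, at least 14.2-fold higher in the wild type. All 3 Grb10 probes were therefore high in the wild type and near or below background in the knockout. Each bound divides the bright signal by the dimmest signal called above background on the other array, or by the probe's own signal there if that is larger. It allows for no error of either signal, so each "at least" before a bound is approximate. For the probe with the ATG, the error model put the SD of the log2 difference at 0.53.

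A further probe lies inside the span of the Grb10 probes, on the same strand, 25558 bases upstream of the most 3′ one. It is assigned to the predicted locus LOC102631979, and was picked for mention after its value was seen. It read 1318 in the wild type and 13.9, not well above background, in the knockout, at least 43.2-fold higher in the wild type.

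Igf2, the fetal growth factor of the family, was also lower in the knockout. Its most 3′ probe, on chromosome 7 at 149837115 to 149837174 (mm9), read 2104 in the wild type and 161 in the knockout, a log2 difference of −3.71 (13.0-fold lower). Of the 18671 genes, 48 had a difference as low or lower. The other Igf2 probe, 2546 bases upstream, read 156 in the wild type and 11.9, not well above background, in the knockout, so the wild type was at least 5.13-fold higher. Both probes were lower in the knockout.

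H19 was higher in the knockout. Its most 3′ probe read 3391 in the wild type and 33718 in the knockout, a log2 difference of 3.31 (9.94-fold higher). The probe 681 bases upstream, which the design lists as a long intergenic RNA on the reverse strand, read 202 in the wild type and 2677 in the knockout, a difference of 3.73 (13.3-fold higher). The gene value was 3.52 (11.5-fold), and 112 of 18671 genes were as high or higher. Both probes were well above background on both arrays, and none of the 20 member probes was saturated (0 probes). The Igf2 and H19 probes sit 75.623 kb apart on the same strand, and their differences had opposite signs.

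Igf1, the main postnatal ligand, was low on both arrays. The most 3′ probe read 224 in the wild type and 312 in the knockout (log2 0.48), and a probe 15060 bases upstream, for transcript variant 2, read 161 and 302 (log2 0.91). Both lay within 2-fold, and the gene value was 0.69. The third Igf1 probe, 68134 bases upstream, was well above background only in the wild type, at 35.0 against 21.4, a bound of 1.15-fold.

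Of the receptors among the members, Igf2r and Insr were within 2-fold and Igf1r was lower in the knockout. Its 2 most 3′ probes, on chromosome 7 and 185 bases apart, read 1106 and 2835 in the wild type and 355 and 1225 in the knockout, with differences of −1.64 and −1.21. A pair of probes near 39 kb upstream, designed on cDNA clones, read 1008 and 945 in the wild type and 647 and 404 in the knockout, with differences of −0.64 and −1.23. All 4 probes were lower in the knockout, 3 of them by at least 2-fold, but they spanned 1.00 on the log2 scale. The gene value was −1.22 (2.33-fold lower), or −0.93, inside 2-fold, when a stricter filter on dim probes was applied.

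Igf2r read 4606 in the wild type and 4178 in the knockout, a difference of −0.14, on its single probe. The probe's listed position on chromosome 17 covers only 11 bases, at 12875253 to 12875263 (mm9). Insr, the insulin receptor, was dim on both arrays. Its most 3′ probe read 69.2 and 77.4 (log2 0.16), and the other, 4001 bases upstream, was not well above background on either array. The sign of the Insr difference turned to −0.23 with spike-in centring, so it has no settled direction.

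The docking proteins differed among themselves. Irs1, on 1 probe on chromosome 1 at 82229692 to 82229751 (mm9), read 2560 in the wild type and 905 in the knockout, 2.83-fold lower. Irs2, also on 1 probe, read 6337 and 3620, a difference of −0.81 that passed 2-fold, at −1.19, only with spike-in centring. Irs4, an X-linked member of the family, read 543 and 805, a difference of 0.57. Only Irs4 of these 3 was higher in the knockout, and it was within 2-fold.

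**Figure D3:**
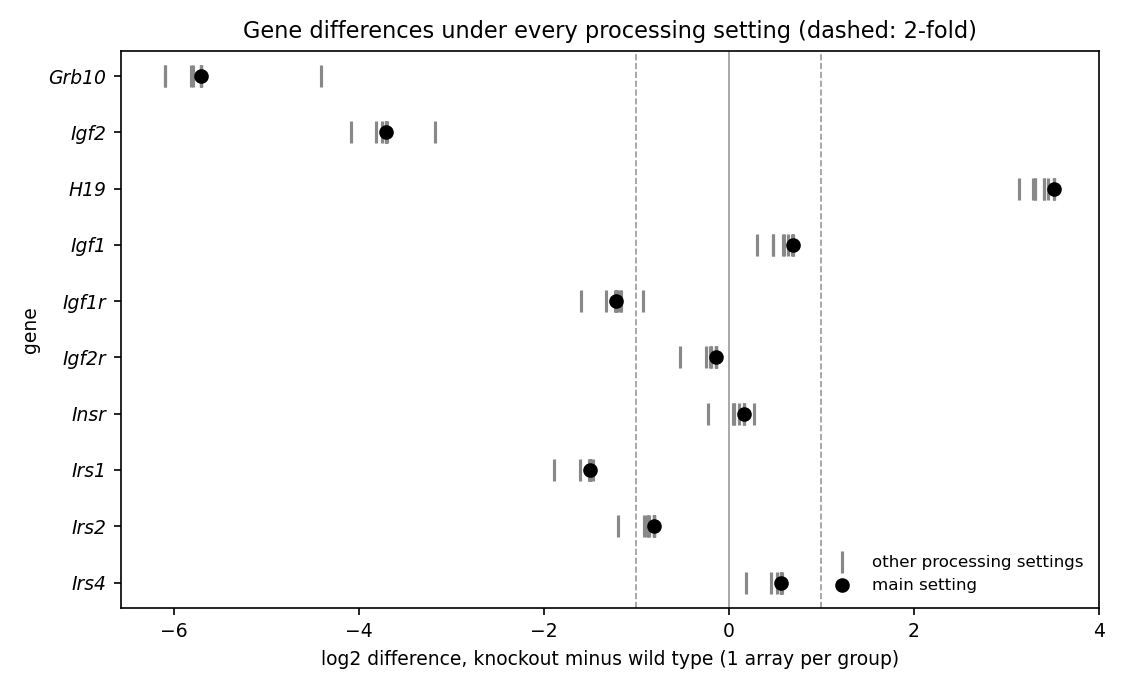
Log2 difference (knockout minus wild type, 1 array per group) of the 10 genes under the main setting (dots) and the other processing settings (ticks), with dashed lines at 2-fold. Grb10, Igf2, H19 and Irs1 are past 2-fold wherever they could be computed, Igf1r and Irs2 each have 1 tick on the other side of the line, and the Insr ticks straddle 0.

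Genes next to the imprinted members were read from the positions in the files, within 500 kb of each most 3′ probe; this window was chosen after the data were seen. Around Grb10, 24 other probes of 15 genes were present and 14 were measured, with a median of 0.21. Past the limit, 2 were higher and 0 lower, against 10.5% and 8.44% of all measured probes. The higher ones were a probe of Ddc (1.19), the enzyme that makes dopamine and serotonin, and one of 1700042O10Rik (1.74). The other Ddc probe differed by −0.03. Cobl, an actin regulator on the other side, differed by 0.02 and 0.34 on its 2 probes. No measured probe of a neighbour was lower by 2-fold, and LOC102631979 was the only neighbour with a bound past 2-fold.

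Around H19 and Igf2, 35 of 50 other probes were measured, with a median of −0.07. Past the limit, 3 were higher and 5 lower, where 10.5% and 8.44% of all measured probes were. The probe of Igf2os, an RNA on the strand opposite to Igf2 and 94.664 kb from the H19 probe, read 680 in the wild type and 59.2 in the knockout, a difference of −3.52 (11.5-fold lower). That knockout signal too lay near the dimmest called above background, and with normexp the fold was 5.18. Ins2, an insulin gene 103.163 kb from H19, was dim on both arrays and read 83.6 and 92.1 (log2 0.14). The gene on the other side of H19, Nctc1, differed by −0.12 on its measured probe, and Mrpl23, a mitochondrial ribosomal protein, by 0.25. Th, the first enzyme of dopamine synthesis, was lower (−1.45), as were Prr33 (−1.76) and, at the edge of the window, Dusp8 (−2.67 and −3.01). Ascl2 (1.74), Tnni2 (1.89) and a probe of Tspan32 (1.08) were higher, but Tspan32 lay within 2-fold in 5 other settings, down to 0.56. The large differences of H19, Igf2 and Igf2os had neighbours within 2-fold on both sides. Of the nearest ones, Ins2 and Nctc1 (93.9 and 86.6) were dim, and Mrpl23 (29116 and 34640) was bright. Past Ins2, the next measured probe was that of Th, which was beyond 2-fold.

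Around Igf2r, 27 of 50 other probes were measured, 1 past the limit upward (Pnldc1, 1.45), 3 downward, with a median of 0.01. The shares over all measured probes were 10.5% upward and 8.44% downward. Airn, the non-coding RNA that overlaps Igf2r in the opposite direction, read 2576 in the wild type and 1191 in the knockout on the probe nearest to Igf2r, a difference of −1.11. Its other probes gave −0.95 (887 and 459) and 0.94 (74.7 and 143.6), so the dimmest probe disagreed with the brighter ones. The gene value of Airn was −0.95, and ranged from −1.34 with spike-in centring to −0.37 with the mean of probes. A pair of long intergenic RNA loci on the Airn strand, 93.001 kb and 147.652 kb from the Igf2r probe, gave −1.35 and −1.25. Both lie inside the span of the Airn probes, and whether they read RNA separate from Airn was not tested. A second probe of the farther locus was above background in the wild type alone, at 108.6 against 23.4, at least 3.56-fold higher there. Igf2r itself was within 2-fold.

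**Figure D4:**
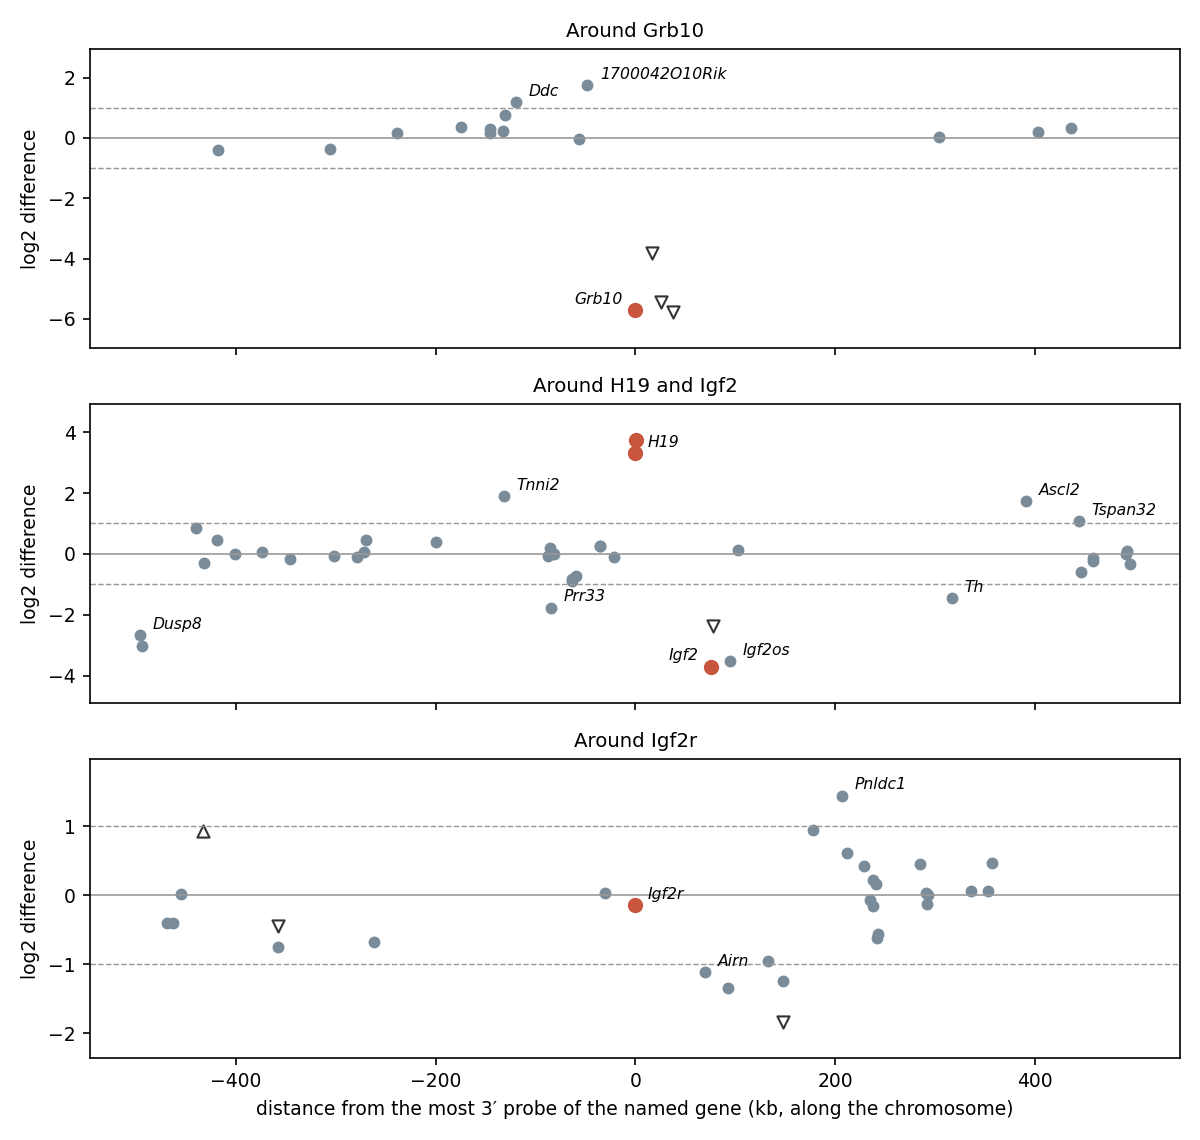
Log2 difference (knockout minus wild type) of measured probes against distance in kb from the most 3′ probe of Grb10, H19 and Igf2r, with members in red, other probes in grey, dashed lines at 2-fold and open triangles for bounds where 1 array was not well above background. Grb10 and its internal probes stand alone at the bottom of the first panel, and in the second panel H19 lies at the top and Igf2 with Igf2os at the bottom.

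Beyond the members, the extracellular part of the pathway was divided. Of 14 measured genes for ligands, IGF-binding proteins and their proteases, 5 were at least 2-fold higher and 5 lower. Over all measured genes the shares were 11.5% and 8.81%. Among the genes left by the stricter filter, 2 were higher and 0 lower. The median was 0.42, against 0.10 over all measured genes. Igfbp1, counted as higher at 1.05 (30.6 and 63.2), was inside 2-fold in several settings, at 0.66 with spike-in centring or normexp. Igfbp5, a secreted IGF-binding protein, read 8277 in the wild type and 555 in the knockout (log2 −3.90, 14.9-fold lower). Igf2 was next, followed by Pappa, a protease that frees IGF from binding proteins, at −2.54. At the other end Igfbp2 read 5700 and 24446 (log2 2.10, 4.29-fold higher) and Igfbp7 differed by 1.67. Pappa2, a related protease, was well above background only in the wild type, by at least 2.56-fold. The binding proteins thus included members past 2-fold in both directions.

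The intracellular lists are given beside the shares over all genes above, 11.5% higher and 8.81% lower. Of 16 measured receptors and docking proteins, 0 were higher and 6 lower past the limit (median −0.47), with 2 lower left by the stricter filter. Gab2, a docking protein, was lowest (−2.71, 6.55-fold), followed by Irs1; its knockout signal of 48.0 was near background, and with normexp it was 2.83-fold lower. Gab1 (0.98) and Dok4 (0.96, with probes at 0.40 and 1.51) were highest. Of 17 adapters and inhibitors, 3 were higher and 1 lower by that much (median 0.01), and the lower one was Grb10. Spike-in centring gave 2 higher and 3 lower. The closest relatives of Grb10, Grb7 and Grb14, differed by 1.93 and 0.13. Socs2, a feedback inhibitor of cytokine and growth hormone receptors, was 1.52, and Ptpn1, the phosphatase that acts on the insulin receptor, was −0.83, or −1.22 with spike-in centring.

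Of 22 genes for PI3 kinase, AKT and FOXO, 3 were higher and 3 lower by at least 2-fold (median −0.09). Spike-in centring gave 2 higher and 6 lower, normexp 1 lower, and the stricter filter 0 higher. Inpp5d, which encodes the phosphatase SHIP1, read 229 in the wild type and 2910 in the knockout (log2 3.67, 12.7-fold higher), and Trib3, a pseudokinase that binds AKT, differed by 1.92. Pik3r3, a regulatory subunit of PI3 kinase, was lowest (−1.69), followed by Phlpp1, an AKT phosphatase (−1.20, or −0.92 with normexp background correction). Of 21 genes of the mTOR branch, 2 were higher and 1 lower (median 0.12), or 1 and 2 with spike-in centring. Deptor, an mTOR-binding inhibitor, was 2.11 and Eif4ebp1, a brake on translation that mTOR releases, was 1.15, but 0.88 after quantile normalization, 0.91 after loess and 0.77 after spike-in centring. Mlst8, an mTOR subunit, was −1.22 and Rps6kb2, a ribosomal S6 kinase, −0.63 (−1.02 with spike-in centring).

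A list around the Igf2 mRNA-binding proteins held Igf2bp1, Igf2bp2, Igf2bp3, Lin28a, Lin28b and Hmga2. Of these 6 genes, 0 were higher and 1 lower by at least 2-fold (median −0.70). With spike-in centring 4 were lower (median −1.09), among them Igf2bp3 (−1.08) and Lin28b (−1.10). The lower gene was Hmga2 (−1.65), which is not an Igf2bp gene, and next came Igf2bp2 (−0.98, past 2-fold in 5 other settings). Lin28a (0.23, or −0.15 with spike-in centring and −0.11 on its brightest probe) and Igf2bp1 (−0.42) were highest. The difference of Igf2 itself was −3.71.

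**Figure D5:**
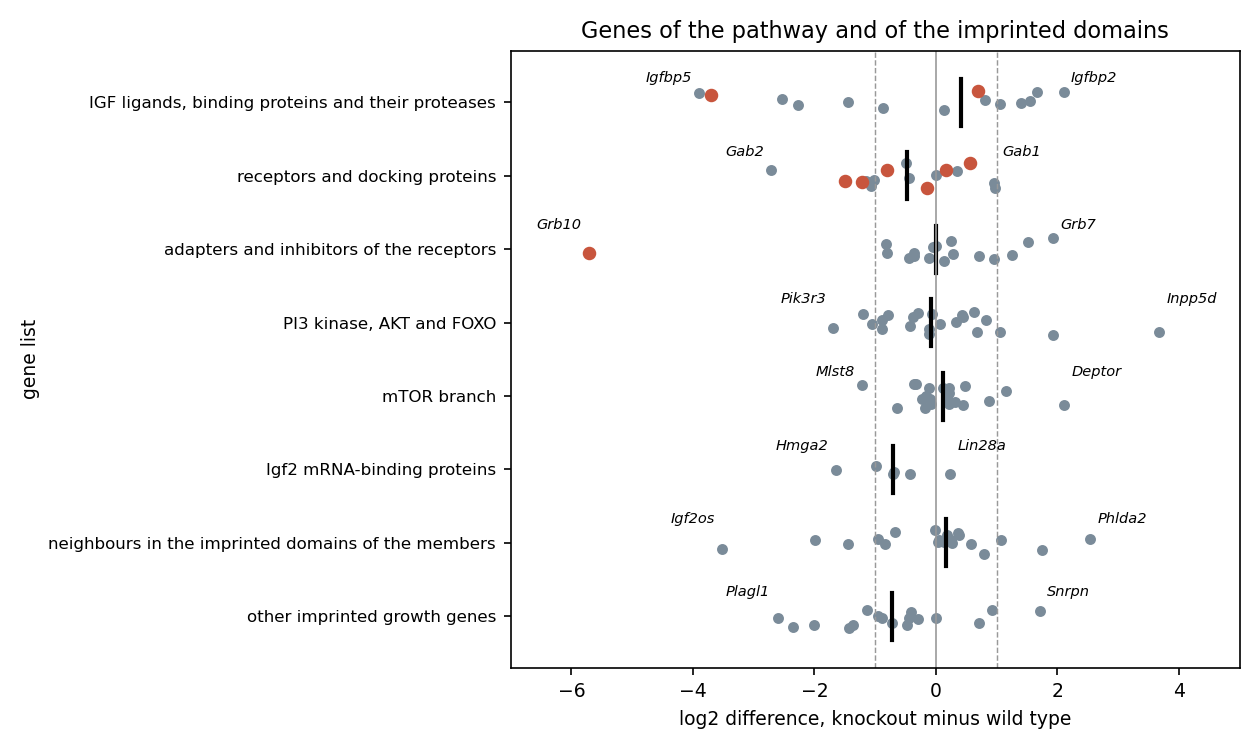
Log2 difference (knockout minus wild type) of each measured gene of the 8 lists, with members in red, a black bar for the list median, dashed lines at 2-fold and the highest and lowest gene of each list named. Medians lie between −0.73 and 0.42, and Grb10, Igf2 and Igfbp5 stand furthest to the left.

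Of 17 measured other imprinted growth genes, 1 was higher and 6 lower past the limit, against 11.5% and 8.81% of all genes. Their median was −0.73, and −0.47 with normexp or the stricter filter. Plagl1, a zinc finger factor, had a gene value of −2.61, or −0.34 when dim probes were kept and −5.20 on its brightest probe. That probe read 3551 in the wild type and 96.3 in the knockout. The other measured probe, a dimmer one, gave −0.01, so the gene value is uncertain. Dlk1, a transmembrane relative of Notch ligands, was −2.36. Snrpn, which encodes a splicing protein, was 1.71 and Magel2 0.93. Of 20 measured genes listed from the domains of the members, 3 were higher and 3 lower by 2-fold (median 0.16), or 2 and 6 with spike-in centring and 5 and 4 on the brightest probes. Phlda2, a growth brake of the placenta, was 2.54 and Cdkn1c, a cell cycle inhibitor, −1.98; both lie in the domain next to Igf2. The 8 lists were chosen with results of these data known, and Ins2 is in more than 1 of them.

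Markers of cell types differed between the arrays as well. Counts past 2-fold stand beside shares over all measured genes of 11.5% higher and 8.81% lower. The arrays had 34765 and 33141 of 56605 probes well above background, wild type first. All 7 naive pluripotency markers were at least 2-fold higher in the knockout, with a summed scaled signal, taking each gene's brightest probe, of 6709 in the wild type and 69954 in the knockout. All 6 primed epiblast markers were higher by at least 2-fold too (sums of 33971 and 138095), and all 6 neural progenitor markers were lower by at least 2-fold (80622 and 7119). Of 6 neuron markers 5 were lower by that much and 0 higher (51152 and 50166); most of these sums is Stmn2, which read 31162 and 45859, while the other 5 were lower. Of 12 measured endoderm markers, 6 were higher by that much and 0 lower (5274 and 10048), among them Afp (1.39) and Apob (1.90), and Apoa4 was above background in the knockout alone, at least 3.42-fold higher, while Gata6, Sox17 and Sox7 differed by 0.28, −0.001 and −0.15. Of 7 trophoblast markers 3 were higher and 3 lower (48734 and 38357), with Elf5 and Hand1 not well above background on either array. Of 6 mesoderm markers 0 were higher and 1 lower (4500.4 and 3138), and Mesp1 was not well above background. Fibroblast markers had 1 higher and 1 lower of 8 (5594 and 5175), and neural crest markers 1 higher and 0 lower of 5 (624 and 1362). Most of that knockout sum is Foxd3, which read 109 in the wild type and 949 in the knockout, while the other neural crest markers lay within 2-fold. The mesoderm, fibroblast and neural crest counts are too small to set apart from the shares over all genes. The part of these cell type differences in the values of Grb10, Igf2, H19 and the other members was not tested.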

How the data were processed

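Total RNA of 2 samples was labelled with Cy3 and hybridised to 1 array each, per the labels. The deposited files hold spot intensity values from Agilent Feature Extraction 10.7.1.1, per the submitters' processing notes; per the file headers, the authors' processed intensity is background-subtracted and detrended within each array, with no scaling between arrays. Quality flags and the deposited error of each intensity were used as given. Both arrays lay on 1 slide in 1 scan.

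Outlier spots were left out, spots of a probe averaged as log2 values, and each array centred on its 75th percentile over non-control probes (864 wild type, 652 knockout before centring). A probe was measured where at least a share of 0.5 of its spots was well above background on both arrays and none was saturated. RefSeq (GRCm38.p6) supplied current gene symbols and promoter windows. Over 298 probes printed in several spots, the SD of log2 signal between spots was 0.0646 and 0.0705, which is error within an array. The number of arrays limits the precision, and no test was run. The members, the 8 pathway lists and 9 marker lists were chosen with earlier results of these data known. The text names every member, the 2 highest and 2 lowest genes of each pathway list, bounds of at least 2-fold, and, beyond this rule, cell type markers, genes of the windows around members and relatives named for comparison, chosen after their values were seen. There were 10 alternatives for scaling, background, filters and probe summary, run with limma 3.58.1 in R 4.3.3. The counting step was tested on simulated data.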

Additional observations from a re-analysis of the deposited data

How the results depend on the processing

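Of 95 recomputed differences of member genes, 92 kept their direction and their side of the 2-fold limit. The exceptions were Irs2 (−1.19) and the sign of Insr (−0.23) with spike-in centring, and Igf1r (−0.93) with the stricter filter on dim probes. That filter also left 1 member gene and 2 member probes at least 2-fold lower and 1 member probe at least 2-fold higher. It removed every Grb10 and Igf2 probe, an H19 probe dim in the wild type and the pair of Igf1r probes with the lowest knockout signals, and it gives no value for Grb10, Igf2, Igf1, Insr and Irs4. The ranges over all settings were −6.10 to −4.41 for Grb10, −4.09 to −3.18 for Igf2, 3.13 to 3.52 for H19 and −1.89 to −1.48 for Irs1, with the smallest differences of Grb10 and Igf2 under normexp. Spike-in centring shifted all genes by −0.39, so that 1397 were at least 2-fold higher and 2964 lower, against 2149 and 1644. Normexp gave 1557 and 1047, the stricter filter 635 and 613, and no filter 4038 and 2587. Of 80 recomputed list medians, 12 changed sign, and the medians of the adapter, mTOR and domain-neighbour lists have no settled sign. Signals of Grb10 in the knockout lay near background, which limits its fold. No paired analysis was possible because each group has 1 array.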
